A study of Mus musculus with 8 samples.

Results

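Mitochondrial ribosomal proteins are the protein components of the ribosome inside mitochondria, and the report covers the mouse genes named Mrpl (large subunit) and Mrps (small subunit). Members were the protein-coding genes of the deposited count table whose GENCODE M21 symbol starts with Mrpl or Mrps followed by a digit, without the "-ps" pseudogenes. This gave 78 genes (49 Mrpl and 29 Mrps) among 50143 gene IDs. Of these, 77 had enough reads to be tested, among 14887 tested genes.

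Py230, an established line of mouse mammary adenocarcinoma cells, was injected to form tumours in mammary gland 4 of female C57BL/6 mice, and the tumours were taken at day 56. All mice had been ovariectomized at 6 weeks of age and were put on their diets 2 weeks later, for 6 weeks. The obese group (4 tumours) received a high fat diet of 5.1 kcal/g with 60% of calories from fat and gained 35% in body weight on average. The lean group (4 tumours) received a regular diet of 3.6 kcal/g with 10% of calories from fat. Both groups carry the same cell line, so the comparison bears on 1 tumour model in mice without ovaries. It asks which tumour transcripts differ between obese hosts on the high fat diet and lean hosts on the regular diet. Obesity and diet cannot be told apart in this design. Nothing in the labels says how the tumours map to mice, so p-values measure the spread between these tumours.

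The mitochondrial ribosome translates the few proteins that mitochondrial DNA encodes, all of them subunits of the oxidative phosphorylation complexes. Its RNAs come from mitochondrial DNA, whereas every protein of it is encoded in the nucleus, made in the cytosol and imported. About its bacterial core, with counterparts in the bacterial ribosome, sit proteins found only in mitochondria, many of them peripheral. The large subunit forms peptide bonds and holds the tunnel through which the new protein leaves, and the small subunit binds and decodes the mRNA.

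Libraries held 25.7 to 66.7 M counts. Values below are counts per 1 M counts (CPM) scaled by edgeR's TMM factors, and "log2 change" is the obese minus lean estimate of edgeR's quasi-likelihood test with its standard error (SE). A gene was said to rise or fall where its p, adjusted over all tested genes by Benjamini-Hochberg, was under 0.05. On the first principal component of the 1000 most variable genes (88.6% of variance), the lean tumours were between 70.2 and 93.7 and the obese ones between -136 and -96.5, except obese replicate 3 at 12.9. Markers of several cell types moved with the groups. Summed epithelial markers (Epcam, Krt8, Krt18, Cdh1, Krt14, Krt5) stood at 62.6 to 699 CPM in obese and 1799 to 2782 CPM in lean tumours, below the lean range in every obese tumour, and 3 of the 6 fell. Epcam, an adhesion protein that marks epithelial cells, was at 0.495, 4.203, 175 and 5.52 CPM in obese and 532, 233, 447 and 539 CPM in lean replicates 1 to 4. Thus 3 of the 4 obese tumours were near 0 and obese replicate 3 came closest to the lean range, and Krt5 and Krt14 had 0 counts in obese replicate 1. Macrophage markers reached 582 to 802 against 252 to 417 CPM (4 of 5 rose and Csf1r fell), and T cell markers 16.2 to 50.9 against 65.5 to 165 CPM (5 of 5 fell). Fibroblast markers overlapped, at 1118 to 4977 against 856 to 1222 CPM (3 of 6 rose and 2 fell). B cell markers stood at 2.48 to 8.90 against 22.2 to 52.3 CPM (4 of 4 fell). Skeletal muscle markers (Acta1, Ckm, Myh4, Tnnt3, Mylpf) were at 1222 CPM in lean replicate 1 and 1146 CPM in lean replicate 4, against 19.4 and 90.4 CPM in lean replicates 2 and 3 and 5.12 to 183 CPM in obese tumours, and 0 of 5 passed. The part of cell composition in the results below was not tested, and in bulk tumours fewer cells of a type and less RNA per cell cannot be told apart.

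The mitochondrial ribosomal protein genes did not move as a block. Among the 77 tested members, 19 rose in obese tumours (24.7%), 30 fell (39.0%) and 28 did not pass the test. Over all 14887 tested genes 59.2% passed, with 30.9% of tested genes rising and 28.4% falling. The median log2 change was -0.18 over the members and -0.04 over all tested genes. Members' changes ran from -1.35 to 0.98, with quartiles of -0.64 and 0.40, a narrower span than the quartiles of -1.16 and 0.73 over all tested genes. With upper quartile factors in place of TMM, 10 members rose and 39 fell, as 3612 of all tested genes rose and 5145 fell, and the medians were -0.39 and -0.25. Library size alone gave 10 and 38. With offsets that take out each tumour's trend over GC content and exon length, 24 of the 77 members rose and 18 fell. Of all 14759 genes tested that way, 4755 rose (32.2%) and 4265 fell (28.9%), so rises outnumbered falls there as well. The medians were 0.03 over the members and -0.02 over those genes. Leaving out 1 tumour gave 14 to 32 falls, with 14 in the fit without lean replicate 4, and 15 to 22 rises. In 19 members every obese tumour lay above every lean one (24.7%, against 28.9% of all tested genes), and in 16 every obese tumour lay below (20.8%, against 28.1%).

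**Figure D1:**
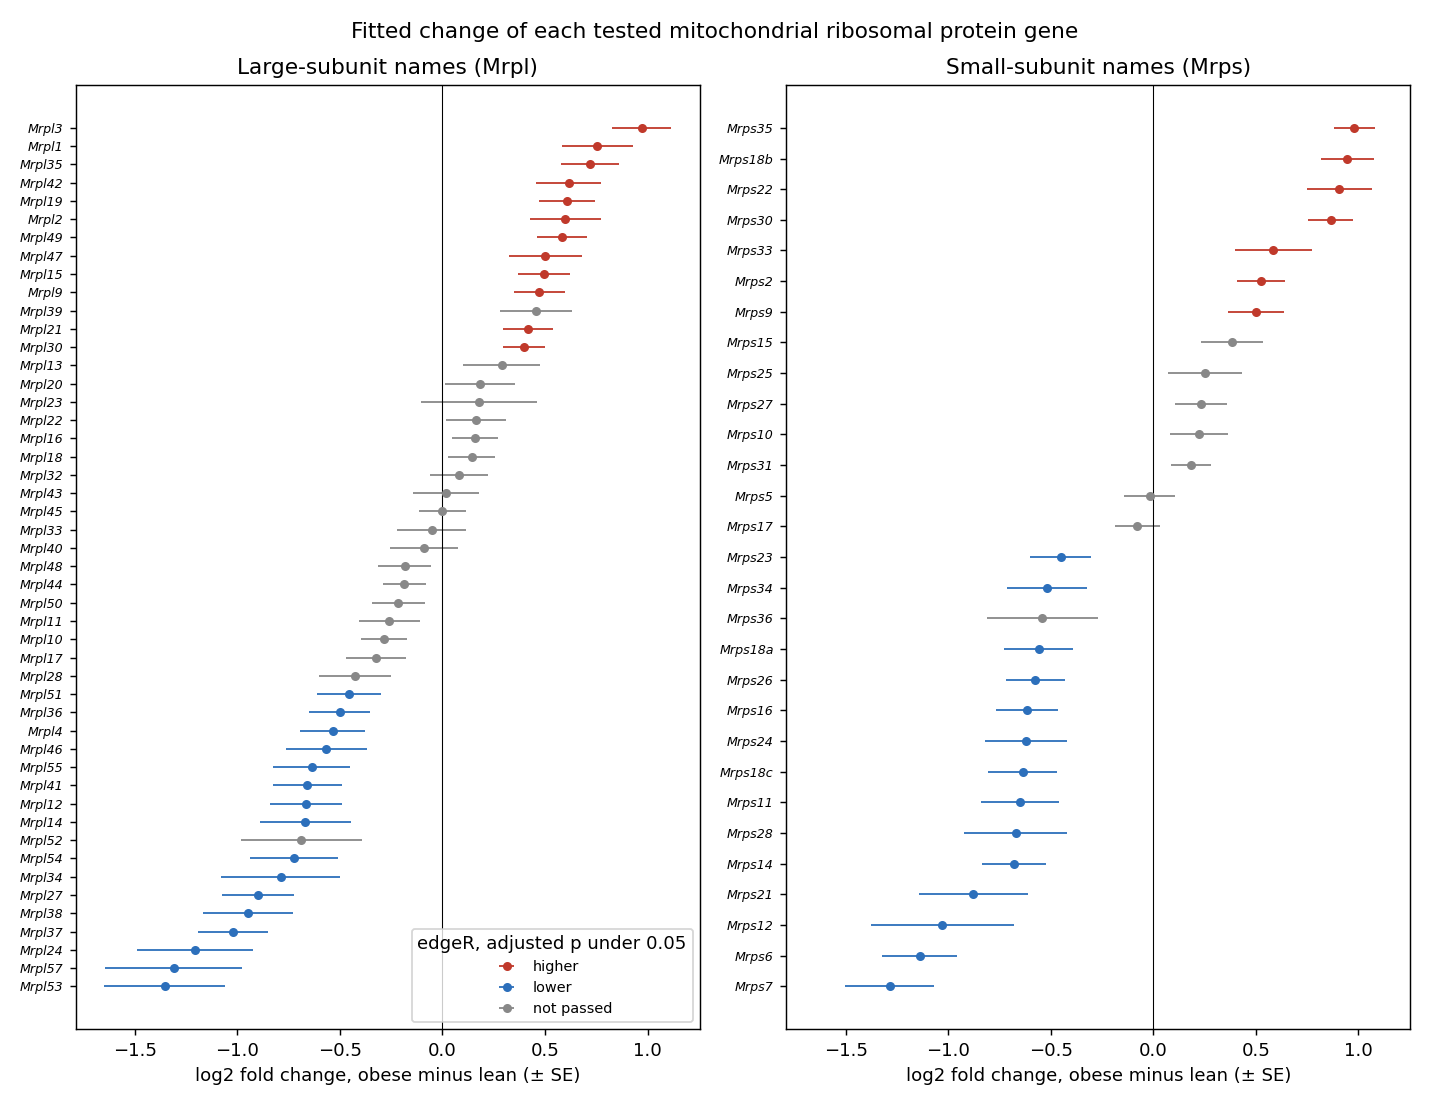
Log2 change (obese minus lean) of the 77 tested mitochondrial ribosomal protein genes, in panels for Mrpl and Mrps names, ordered by size, with bars of 1 SE and colours for rose, fell and not passed. The points run from -1.35 (Mrpl53) to 0.98 (Mrps35), with 19 rises and 30 falls.

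The summed level of the members in obese replicates 1 to 4 was 4478, 3441, 4487 and 4097 CPM, and in lean replicates 1 to 4 it was 4914, 4119, 4828 and 4939 CPM. Obese replicate 2 held the lowest sum, and lean replicate 2 lay within the obese range, so the groups overlapped. This sum is of CPM without division by length, so at equal level per kilobase a longer member weighs more in it. The median level per kilobase of exon was 36.7 CPM for the members that fell and 12.1 CPM for those that rose. Their median exon lengths were 1532.5 and 3991 bases, so the levels per kilobase do not give their weights in the sum.

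**Figure D2:**
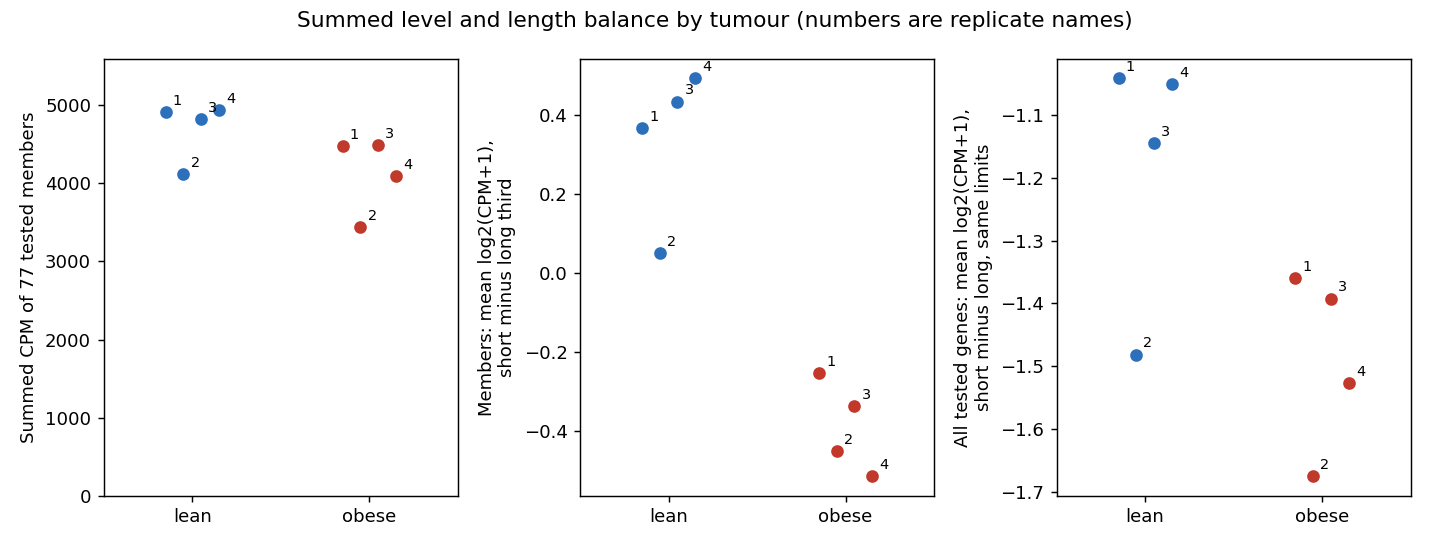
Summed CPM of the 77 tested members in each tumour (left), and the mean log2(CPM + 1) of the shortest minus that of the longest members (middle) and of all tested genes within the same length limits (right), with 1 point per tumour and its replicate number. The summed levels overlap between groups through lean replicate 2 at 4119 CPM, whereas the members' short minus long difference is negative in the 4 obese tumours and positive in the 4 lean tumours.

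Before the single genes, promoter sequences of 5 members are shown, because these genes span the range of responses. They are the 3 paralogs of the Mrps18 family, which gave opposite calls, and a strong rise (Mrpl3) and a strong fall (Mrps7) among genes with a bacterial counterpart. Each window holds 250 bases before and 50 after the RefSeq start, on GRCm38.p6, read 5′ to 3′ on the gene's strand. Capitals mark matches, on either strand, to an ETS motif (CCGGAAG), the core of the NRF1 site (GCATGCGC), a YY1 motif (AAGATGGC) or an E-box (CACGTG). Windows are chr17:46110754-46111053 (+ strand) for Mrps18a, chr17:35916391-35916690 (- strand) for Mrps18b, chr5:100798509-100798808 (+ strand) for Mrps18c, chr9:105053018-105053317 (+ strand) for Mrpl3 and chr11:115603890-115604189 (+ strand) for Mrps7.
Mrps18a: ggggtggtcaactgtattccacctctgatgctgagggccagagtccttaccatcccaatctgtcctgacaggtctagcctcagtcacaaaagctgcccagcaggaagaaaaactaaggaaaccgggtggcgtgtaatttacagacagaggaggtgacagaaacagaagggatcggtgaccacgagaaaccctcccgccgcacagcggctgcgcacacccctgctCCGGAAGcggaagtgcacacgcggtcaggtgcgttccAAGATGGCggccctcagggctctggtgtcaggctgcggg
Mrps18b: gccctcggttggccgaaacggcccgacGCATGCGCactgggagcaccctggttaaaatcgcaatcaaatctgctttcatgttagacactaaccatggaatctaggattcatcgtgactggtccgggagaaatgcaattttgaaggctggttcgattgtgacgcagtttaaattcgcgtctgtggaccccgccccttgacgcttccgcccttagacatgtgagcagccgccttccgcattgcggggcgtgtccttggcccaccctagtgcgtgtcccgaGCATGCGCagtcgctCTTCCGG
Mrps18c: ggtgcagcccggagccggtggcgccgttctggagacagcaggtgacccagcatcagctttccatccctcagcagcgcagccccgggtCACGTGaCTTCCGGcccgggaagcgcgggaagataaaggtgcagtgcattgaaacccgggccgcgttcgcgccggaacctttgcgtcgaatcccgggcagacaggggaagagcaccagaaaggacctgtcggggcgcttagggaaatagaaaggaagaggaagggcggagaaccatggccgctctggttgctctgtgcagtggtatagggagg
Mrpl3: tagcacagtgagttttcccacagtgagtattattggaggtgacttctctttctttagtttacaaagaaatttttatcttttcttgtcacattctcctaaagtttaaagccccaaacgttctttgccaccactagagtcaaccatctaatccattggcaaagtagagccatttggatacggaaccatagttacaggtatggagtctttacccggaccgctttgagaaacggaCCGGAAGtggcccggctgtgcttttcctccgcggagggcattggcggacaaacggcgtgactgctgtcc
Mrps7: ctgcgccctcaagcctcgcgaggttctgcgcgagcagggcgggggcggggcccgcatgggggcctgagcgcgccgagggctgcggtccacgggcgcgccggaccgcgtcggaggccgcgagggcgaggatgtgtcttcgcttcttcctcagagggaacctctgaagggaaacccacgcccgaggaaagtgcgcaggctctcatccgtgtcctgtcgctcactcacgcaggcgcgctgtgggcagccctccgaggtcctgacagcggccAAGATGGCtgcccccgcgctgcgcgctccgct
Capitals mark 1 ETS and 1 YY1 match in Mrps18a, 2 NRF1 and 1 ETS matches in Mrps18b, 1 E-box and 1 ETS match in Mrps18c, 1 ETS match in Mrpl3 and 1 YY1 match in Mrps7. A match describes letters in the window and shows no binding.

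The Mrps18 family descends from a single bacterial small-subunit protein, and its 3 members occupy different sites. Mrps18c takes the bacterial position in the small subunit, Mrps18b another site in the small subunit, and Mrps18a, despite its name, sits in the large subunit. Mrps18b (chr17:35910379-35916389) stood at 52.6, 46.4, 47.5 and 51.3 CPM in obese replicates 1 to 4 and at 29.7, 22.4, 23.3 and 27.2 CPM in lean replicates 1 to 4. Every obese tumour exceeded every lean tumour, and the log2 change was 0.95 ± 0.13 (edgeR adjusted p = 0.000962). Its exons share 30.5% of their bases with the antisense gene Gm16279. Mrps18c (chr5:100798627-100804471) stood at 34.3, 26.7, 46.5 and 37.1 CPM in the obese and 54.6, 55.0, 57.7 and 57.7 CPM in the lean replicates. Every obese tumour lay below every lean tumour, and it fell by 0.64 ± 0.17 on the log2 scale (edgeR adjusted p = 0.0129). It shares 23.2% of its exon bases with Gm43511 on the same strand. Mrps18a (chr17:46110986-46128910) measured 50.4, 46.7, 60.6 and 53.4 CPM against 85.7, 56.2, 79.8 and 89.3 CPM in the same order. The groups overlapped. It fell by 0.56 ± 0.17 (edgeR adjusted p = 0.0209), a call lost without obese replicate 1, 2 or 4 or lean replicate 4, where the adjusted p was 0.0505 to 0.0564.

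Large-subunit proteins with a bacterial counterpart rose and fell in shares near those of all tested genes. Of 30 tested, 10 rose (33.3%, against 30.9% of all tested genes), 8 fell (26.7%, against 28.4%) and 12 did not pass, with a median log2 change of 0.15. Mrpl3 (chr9:105053239-105079888), the counterpart of the bacterial protein that reaches towards the peptidyl transferase centre, led them. Its level was 105, 75.8, 88.8 and 79.96 CPM in obese replicates 1 to 4 and 41.2, 52.3, 44.0 and 40.8 CPM in lean replicates 1 to 4. Every obese tumour exceeded every lean tumour, with group means of 87.5 ± 13.1 CPM in obese and 44.6 ± 5.36 CPM in lean tumours (SD, n = 4 each) and a log2 change of 0.97 ± 0.14 (edgeR adjusted p = 0.00134). Mrpl1 (chr5:96209493-96266727), of the mobile stalk through which spent tRNA leaves, stood at 41.9, 31.2, 45.0 and 37.4 CPM in obese and 21.7, 29.0, 21.5 and 19.9 CPM in lean tumours. No lean tumour reached the obese range, and its log2 change was 0.76 ± 0.17 (edgeR adjusted p = 0.00758). For Mrpl35 (chr6:71812997-71826969) the levels were 81.2, 58.7, 70.3 and 89.0 CPM in obese and 46.8, 45.6, 44.9 and 44.3 CPM in lean tumours. All 4 obese tumours lay above the lean range, with a log2 change of 0.72 ± 0.14 (edgeR adjusted p = 0.00412). The other rises of the group were Mrpl2, Mrpl9, Mrpl15, Mrpl19, Mrpl21, Mrpl30 and Mrpl47, with log2 changes of 0.40 to 0.61, named here to account for the group and chosen after their values were seen. Of 17 alternative fits, the call was lost in 12 for Mrpl47, 5 for Mrpl21, 4 for Mrpl30, 3 for Mrpl15, 2 each for Mrpl2 and Mrpl9, and 0 for Mrpl19.

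The strongest fall of that group was Mrpl24 (chr3:87919506-87923672), a protein beside the exit of the peptide tunnel. It measured 37.5, 34.5, 79.0 and 43.9 CPM in obese replicates 1 to 4 and 135, 87.6, 105 and 122 CPM in lean replicates 1 to 4. No obese tumour reached the lean range, and obese replicate 3 was the highest of its group. The group means were 48.7 ± 20.6 CPM in obese and 112 ± 20.5 CPM in lean tumours (SD, n = 4 each), and the log2 change was -1.21 ± 0.28 (edgeR adjusted p = 0.00834). Some 26.3% of its exon bases lie on the opposite strand of Rrnad1, which also fell (log2 change -0.47, edgeR adjusted p = 0.0474). Mrpl12 (chr11:120484613-120489065), the stalk protein that recruits translation factors and has also been tied to mitochondrial transcription, was the most abundant member per length. It stood at 193, 121, 189 and 142 CPM in the obese and 284, 218, 253 and 269 CPM in the lean replicates. All 4 obese tumours lay under the lean range, and it fell by 0.66 ± 0.18 (edgeR adjusted p = 0.0133). With GC and length offsets the change was -0.20 and no longer passed (edgeR adjusted p = 0.199). The other falls were Mrpl4, Mrpl14, Mrpl27, Mrpl34, Mrpl36 and Mrpl55, at -0.90 to -0.50. Of the 17 alternatives, 8 lost the call for Mrpl34, 6 each for Mrpl14 and Mrpl55, 5 for Mrpl4, 4 for Mrpl36 and 0 for Mrpl27, and with offsets the change of Mrpl14 was 0.03. By position, 0 of the 3 stalk proteins (Mrpl10, Mrpl11, Mrpl12) rose and 1 fell, with a median of -0.28. Of the 6 proteins at the tunnel exit 1 rose and 1 fell, with a median of 0.08. Over all tested genes 30.9% rose and 28.4% fell.

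Large-subunit proteins without a bacterial counterpart mostly fell where they passed. Of 18 tested, 2 rose (11.1%, against 30.9% of all tested genes), 8 fell (44.4%, against 28.4%) and 8 did not pass, with a median log2 change of -0.34. Counts of each group under GC and length offsets are given below. Mrpl42 (chr10:95480805-95501940), a peripheral protein, had 91.0, 60.3, 84.5 and 98.6 CPM in obese and 56.4, 57.5, 50.8 and 53.3 CPM in lean replicates. The lowest obese value was above the highest lean value, with a log2 change of 0.62 ± 0.16 (edgeR adjusted p = 0.0119), and the call was lost with upper quartile factors (0.41, adjusted p = 0.0618) and with library size alone (0.43, adjusted p = 0.052). The other rise was Mrpl49, at 0.58. Among the falls, Mrpl53 (chr6:83109040-83109939) had the largest change of all members. It measured 23.4, 13.9, 22.5 and 12.6 CPM in obese replicates 1 to 4 against 51.3, 27.5, 50.1 and 56.3 CPM in lean replicates 1 to 4. The highest obese value was below the lowest lean value, with a log2 change of -1.35 ± 0.30 (edgeR adjusted p = 0.00622). Its value is uncertain, because 88.0% of its exon bases also belong to Gm42688 on the same strand. Mrpl57 (chr14:57826234-57829296) stood at 26.6, 15.8, 19.0 and 12.9 CPM in obese and 37.5, 26.6, 67.8 and 52.5 CPM in lean tumours. Values of the 2 groups overlapped, and it fell by 1.31 ± 0.33 (edgeR adjusted p = 0.0114).

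Mrpl37 (chr4:107055874-107066868) gave a tighter fall, from a lean level of 107, 94.8, 104 and 109 CPM in replicates 1 to 4 to an obese level of 54.0, 37.4, 65.1 and 47.4 CPM. Every obese tumour lay below every lean tumour, with means of 51.0 ± 11.6 CPM in obese and 103 ± 6.17 CPM in lean tumours (SD, n = 4 each) and a log2 change of -1.02 ± 0.17 (edgeR adjusted p = 0.00216). Mrpl38 (chr11:116131817-116138868), of the central protuberance where the subunits meet, stood at 85.5, 77.5, 102 and 70.5 CPM in obese and 178, 99.7, 179 and 189 CPM in lean replicates. Obese and lean ranges overlapped, lean replicate 2 was far below the other lean tumours, and the gene fell by 0.95 ± 0.22 (edgeR adjusted p = 0.00792). Of the 6 tested proteins of the central protuberance, 0 rose (against 30.9% of all tested genes) and 3 fell (against 28.4%), with a median of -0.38. The remaining falls among the mitochondria-specific large-subunit proteins were Mrpl41, Mrpl46, Mrpl51 and Mrpl54, at -0.72 to -0.46. Their calls were lost in 8 (Mrpl46), 6 (Mrpl51), 5 (Mrpl54) and 1 (Mrpl41) of the 17 alternatives, and with offsets the change of Mrpl54 was 0.05.

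Among small-subunit proteins with a bacterial counterpart falls outnumbered rises, and the difference from the large-subunit group was not tested. Of 16 tested, 2 rose (12.5%, against 30.9% of all tested genes), 10 fell (62.5%, against 28.4%) and 4 did not pass, with a median log2 change of -0.63. Mrps7 (chr11:115603925-115608036), which organises the head of the small subunit near the exit site for tRNA, fell most. Its level was 89.8, 58.8, 124 and 78.2 CPM in obese replicates 1 to 4 and 223, 185, 219.7 and 227 CPM in lean replicates 1 to 4. No obese tumour reached the lean range, with means of 87.6 ± 27.2 CPM in obese and 214 ± 19.2 CPM in lean tumours (SD, n = 4 each) and a log2 change of -1.29 ± 0.22 (edgeR adjusted p = 0.00235). Mrps6 (chr16:92058270-92112227), a partner of the bacterial-type Mrps18 protein on the platform of the subunit, had 50.1, 59.1, 80.1 and 78.4 CPM in obese and 164, 121, 152 and 153 CPM in lean replicates. All 4 obese tumours lay under the lean range, and it fell by 1.14 ± 0.18 (edgeR adjusted p = 0.00179). It shares 19.9% of its exon bases with Gm49711 and 10.4% with Slc5a3, both on its own strand, and Slc5a3 itself did not pass (log2 change 0.43, edgeR adjusted p = 0.434).

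Mrps12 (chr7:28739641-28741820), the counterpart of the bacterial decoding-centre protein in which streptomycin resistance arises, ranged widely. It stood at 36.9, 17.6, 23.5 and 17.7 CPM in obese and 48.8, 24.5, 60.96 and 60.6 CPM in lean replicates. The ranges of the groups overlapped, and the log2 change was -1.03 ± 0.35 (edgeR adjusted p = 0.034). The call was lost with GC and length offsets (adjusted p = 0.177) and in 6 of the 8 fits that left out a tumour, all but those without obese replicate 1 or lean replicate 2, and over all alternatives the adjusted p ran from 0.000243 to 0.177. Mrps21 (chr3:95862634-95871519) stood at 49.5, 30.7, 66.7 and 51.8 CPM in obese and 108, 62.0, 87.2 and 108 CPM in lean tumours. The groups overlapped, and it fell by 0.88 ± 0.27 (edgeR adjusted p = 0.0221), a call lost at an adjusted p of 0.05 to 0.0521 when obese replicate 1, lean replicate 1 or lean replicate 4 was left out. The other falls, Mrps11, Mrps14, Mrps16, Mrps24 and Mrps28, were -0.68 to -0.62. Of the 17 alternatives, 7 lost the call for Mrps28, 5 each for Mrps11 and Mrps24, and 0 for Mrps14 and Mrps16. Mrps24 shares 15.4% of its exon bases with Urgcp on its own strand, which rose (log2 change 0.49, edgeR adjusted p = 0.0122), and with offsets the change of Mrps24 was 0.04. The rises were Mrps2 (0.53, lost in 0 alternatives) and Mrps9 (0.50, lost in 3). Mrps11 and Mrpl46 lie head to head on chromosome 7 and share 173 exon bases, and both fell (-0.65 and -0.57). The pair was chosen after its values were seen, and both calls were lost with GC and length offsets (adjusted p = 0.0712 and 0.172).

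Small-subunit names not listed with a bacterial counterpart held 4 of the 5 largest rises (Mrps35, Mrps18b, Mrps22 and Mrps30). Of the Mrps18 family only Mrps18c, at the bacterial position, was listed with a counterpart. Mrps18a and Mrps18b are counted here despite their bacterial descent. Of 13 tested, 5 rose (38.5%, against 30.9% of all tested genes), 4 fell (30.8%, against 28.4%) and 4 did not pass, with a median log2 change of 0.23. Mrps35 (chr6:147042764-147073991) had the largest rise of all members. It stood at 72.7, 80.1, 78.1 and 86.7 CPM in obese replicates 1 to 4 and 41.5, 40.4, 41.2 and 37.7 CPM in lean replicates 1 to 4. Every obese tumour exceeded every lean tumour, with means of 79.4 ± 5.78 CPM in obese and 40.2 ± 1.76 CPM in lean tumours (SD, n = 4 each) and a log2 change of 0.98 ± 0.10 (edgeR adjusted p = 0.000325). Mrps22 (chr9:98588730-98601660), in which inherited variants cause a mitochondrial disorder, measured 49.4, 32.3, 43.7 and 44.0 CPM in obese and 23.0, 24.6, 23.2 and 19.5 CPM in lean replicates. No lean tumour reached the obese range, and the log2 change was 0.91 ± 0.16 (edgeR adjusted p = 0.00262). Mrps30 (chr13:118378381-118387252), which by structure belongs to the large subunit, had 67.0, 60.8, 61.8 and 68.6 CPM in obese and 35.0, 39.5, 35.2 and 32.0 CPM in lean tumours. All 4 obese tumours lay above the lean range, with a log2 change of 0.87 ± 0.11 (edgeR adjusted p = 0.00069). The group's remaining rise was Mrps33 (0.59, lost in 5 of 17 alternatives), and its falls besides Mrps18a were Mrps23, Mrps26 and Mrps34, at -0.57 to -0.45. The call was lost in 9 of the alternatives for Mrps34, 8 for Mrps23 and 0 for Mrps26. Mrps34 is uncertain, because it shares 37.0% of its exon bases with Nme3 on the same strand, which fell (log2 change -3.39, edgeR adjusted p = 0.0104), and 63.4% with Mapk8ip3 on the opposite strand, and with offsets its change was 0.06.

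**Figure D3:**
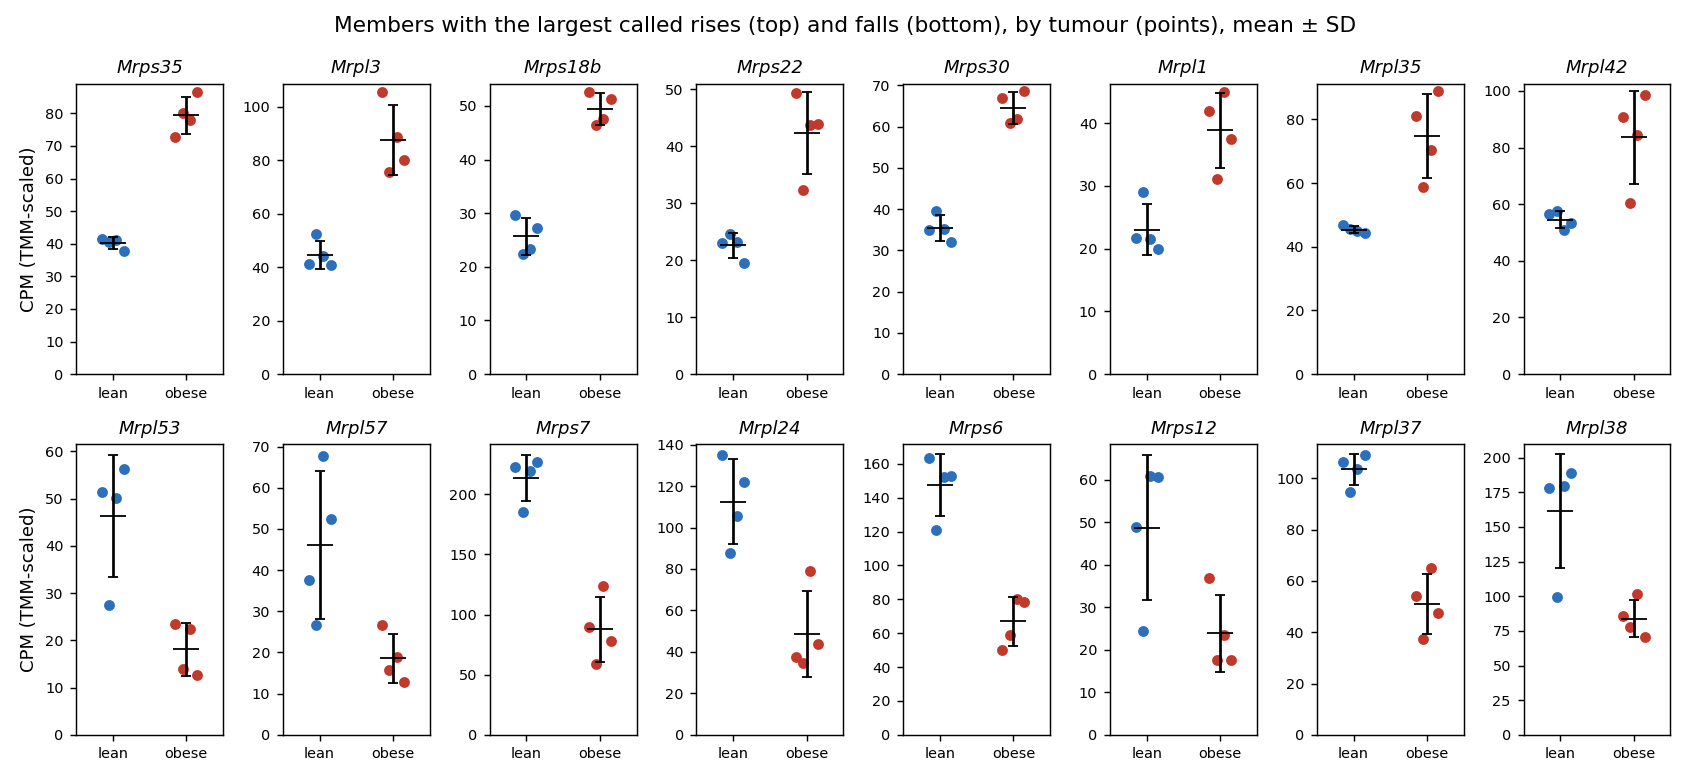
CPM in each tumour (points, linear axes from 0) of the mitochondrial ribosomal protein genes with the 8 strongest rises (top) and the 8 strongest falls (bottom), with mean ± SD over 4 tumours per group. Obese tumours of Mrps35 sit between 72.7 and 86.7 CPM, above lean tumours at 37.7 to 41.5 CPM, and lean replicate 2 gives the low lean point of Mrpl38 at 99.7 CPM.

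By name, 12 of 48 tested Mrpl genes rose and 16 fell (median -0.14), against 7 and 14 of 29 Mrps genes (median -0.45). With Mrps30 and Mrps18a placed in the large subunit, 13 of its 50 rose and 17 fell, with the same median of -0.14. Each subunit held both rises and falls, as did all tested genes. Median exon length was 2660 bases for large-subunit and 2122 bases for small-subunit genes with a bacterial counterpart, and 1995 and 3291 bases for those without. With GC and length offsets the 30 large-subunit genes with a counterpart gave 12 rises and 3 falls (median 0.11). The 16 small-subunit ones gave 2 and 6 (median -0.29). Those without gave 4 and 7 of 18 in the large subunit (median -0.16) and 6 and 2 of 13 under small-subunit names (median 0.06). Over all genes tested with these offsets 32.2% rose and 28.9% fell.

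The 28 members that did not pass included genes with nearly equal means. Mrpl45, which anchors the ribosome to the inner membrane, had means of 55.9 ± 6.12 CPM in obese and 55.9 ± 3.49 CPM in lean tumours (SD, n = 4 each) and a log2 change of 0.00 ± 0.12 (edgeR adjusted p = 0.999). The log2 change was 0.02 ± 0.16 for Mrpl43 (adjusted p = 0.931), -0.02 ± 0.12 for Mrps5 (adjusted p = 0.909) and -0.05 ± 0.17 for Mrpl33 (adjusted p = 0.803). In all 4 genes the groups overlapped. Missing the threshold does not show that the levels are equal.

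Member levels spanned a wide range. As mean CPM per kilobase of exon, the median member stood at 20.9, with quartiles of 10.9 and 39.1. Mrpl12 was the highest at 136 CPM per kb (105 in obese and 167 in lean tumours), followed by Mrps21 at 95.4, Mrps7 at 72.7, Mrps6 at 69.9 and Mrpl52 at 58.5. Of these 5, Mrpl52 did not pass, with 75.2, 37.3, 46.4 and 40.1 CPM in obese and 70.9, 50.5, 99.2 and 99.8 CPM in lean replicates and a log2 change of -0.69 ± 0.29 (edgeR adjusted p = 0.0729). The lowest tested members were Mrpl23 at 0.249, Mrps10 at 3.31 and Mrpl48 at 4.42 CPM per kb, and none of them passed (log2 changes of 0.18, 0.22 and -0.18). Mrpl58, the peptide release enzyme of the central protuberance also called Ict1, was the 1 untested member, with 0 counts in all 8 tumours. A zero count allows up to 3 counts, or between 0.0494 and 0.124 CPM depending on the library, for counting error alone. This limit holds only if reads of the gene were counted at all. The annotation used for counting is not given, so the zeros do not show that Mrpl58 was silent. Counts of tested members ran from 27 to 15145 per tumour.

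Rises and falls differed in gene length and base composition. Members that rose had a median exon length (union of annotated exons) of 3991 bases (range 1170 to 8631) and a median GC content of 47.3%. The falls had a median of 1532.5 bases (range 607 to 4460) and 53.9% GC, and the members that did not pass 2564.5 bases and 49.4% GC. Of the 26 shortest members (607 to 1664 bases), 1 rose and 17 fell, with a median of -0.64. Among all tested genes in that length range 19.8% rose and 37.3% fell, with a median of -0.49. Of the 25 of middle length (1667 to 3258 bases) 7 rose and 9 fell (median -0.09). Among all tested genes of that length 26.3% rose and 31.9% fell, with a median of -0.23. Of the 26 longest (3291 to 8631 bases), 11 rose and 4 fell, with a median of 0.24, against 34.4% and 25.6% and a median of 0.09 among all tested genes of that length. Across the 77 members log2 change went with exon length (Pearson r = 0.50, Spearman rho = 0.51) and against GC content (r = -0.46, rho = -0.48). Over all 14759 tested genes with both properties these were 0.08 and 0.12 for length and -0.16 and -0.19 for GC. These correlations are across genes measured in the same 8 libraries and are given as descriptions.

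**Figure D4:**
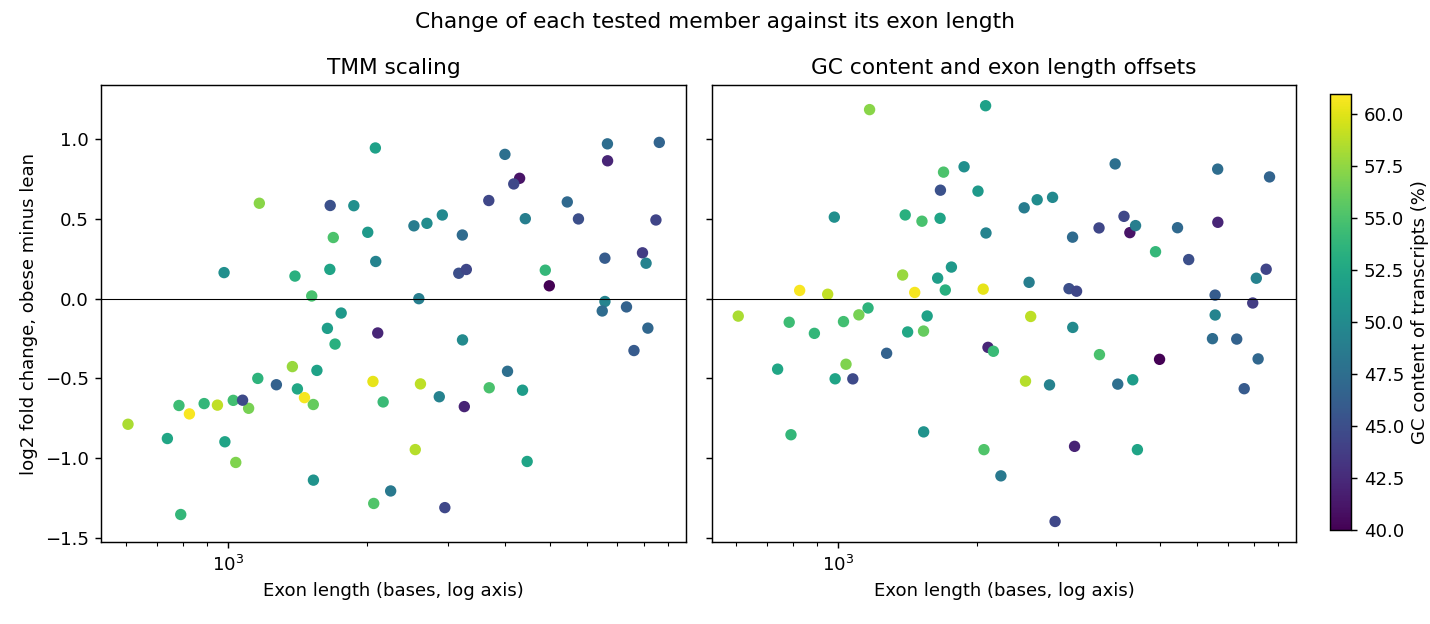
Log2 change (obese minus lean) of the 77 tested members against exon length (bases, log axis), from the fit with TMM scaling (left) and from that with GC and length offsets (right), with 1 point per gene coloured by GC content. With TMM scaling the short members lie mostly below 0 and the long ones more often above (r = 0.50), whereas with offsets r is 0.08.

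The length pattern was present in single tumours. Taking the mean log2(CPM + 1) of the 26 shortest minus that of the 26 longest members, obese replicates 1 to 4 gave -0.25, -0.45, -0.34 and -0.51, and lean replicates 1 to 4 gave 0.37, 0.05, 0.44 and 0.49. Every lean tumour lay above every obese one, and lean replicate 2 was the lowest of its group. Over all tested genes of the same length ranges the difference was -1.36, -1.67, -1.39 and -1.53 in obese and -1.04, -1.48, -1.15 and -1.05 in lean tumours, where lean replicate 2 lay within the obese range. The fit with GC and length offsets, which gave 24 rises and 18 falls, kept 17 of the 19 rises and 15 of the 30 falls, and added 10 calls. Under it the 26 shortest members held 5 rises and 5 falls (median -0.11), and r with length was 0.08. Over genes of all lengths tested that way 32.2% rose and 28.9% fell. The source of the length pattern was not tested.

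Calls that held in all 17 alternative fits, including these offsets and each left-out tumour, were 10 rises and 12 falls. The rises were Mrpl1, Mrpl3, Mrpl19, Mrpl35, Mrpl49, Mrps2, Mrps18b, Mrps22, Mrps30 and Mrps35. The falls were Mrpl24, Mrpl27, Mrpl37, Mrpl38, Mrpl53, Mrpl57, Mrps6, Mrps7, Mrps14, Mrps16, Mrps18c and Mrps26. Without obese replicate 3, which stood apart on the first component, 19 members rose and 30 fell, of which 18 and 28 were calls made with all tumours. Exons of 33 members overlap those of another gene, 8 of them on the same strand. Of the rises that held throughout, Mrpl19 shares 36.0% of its exon bases with Gcfc2, which did not pass (log2 change 0.34, edgeR adjusted p = 0.147). Mrps30 shares 9.35% with B430218F22Rik, and both of these neighbours lie on the opposite strand. Among the tested members that overlap no other gene (45), 11 rose (24.4%, against 30.9% of all tested genes) and 15 fell (33.3%, against 28.4%), with a median of -0.08.

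Promoter windows in RefSeq matched 69 of the 78 members. The ETS motif stood in 25 of them (36.2%), against 16.8% of the 11440 promoters of tested genes and 9.12% of all 27025 promoters. The YY1 motif stood in 12 (17.4%, against 4.31% and 2.88%) and the NRF1 core in 8 (11.6%, against 4.94% and 2.80%). The E-box stood in 5 (7.25%, against 9.85% and 7.24%), CCAAT in 27 (39.1%, against 38.2% and 37.9%) and TATAAA in 4 (5.80%, against 7.74% and 14.2%). Motifs were sought on both strands, and overlaps between motifs were not removed. Only the first listed start of each gene was searched, and some windows lie away from the GENCODE gene start. That of Mrpl33 begins at chr5:31613701, against a gene start at chr5:31596935. By call, the ETS motif stood in 5 of 16 promoters of rises, 12 of 25 of falls and 7 of 27 of members that did not pass, and in that of the untested Mrpl58. The YY1 motif stood in 3, 7 and 2 of these, and the NRF1 core in 2, 0 and 6. Median promoter GC content was 58.3% for members and 60.3% for tested genes.

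Mitoribosomal proteins that carry other names were measured beside the members. Of 5 tested, 2 rose and 0 fell, with a median of -0.06. Ptcd3, a small-subunit protein with RNA-binding repeats, stood at 181, 158, 159 and 224 CPM in obese and 44.8, 52.5, 39.3 and 35.5 CPM in lean replicates. The lowest obese value was above the highest lean value, and its log2 change of 2.07 ± 0.17 (edgeR adjusted p = 0.00021) exceeded that of every Mrpl and Mrps gene. Dap3, a GTP-binding protein of the small subunit, rose by 0.68 ± 0.15 (edgeR adjusted p = 0.00623), whereas the change of Chchd1 was -0.32 ± 0.16 (adjusted p = 0.113).

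Genes that serve the mitochondrial ribosome also both rose and fell, as 30.9% of all tested genes rose and 28.4% fell. Rises made up 30.8% of the translation factors and 44.0% of the assembly factors, and falls 7.69% and 32.0%. For the mitochondrial tRNA synthetases these shares were 29.4% and 35.3%, near those of all tested genes. They were 55.6% and 11.1% for the genes of mitochondrial transcription and RNA processing. Of 13 translation factors 4 rose and 1 fell (median 0.18), the rises including the elongation factors Gfm1 (1.001) and Tsfm (0.71) and the initiation factor Mtif2 (0.76). The 1 fall was the initiation factor Mtif3 (-0.73), and the remaining rise was the recycling factor Mrrf (0.34). Of 25 assembly factors 11 rose and 8 fell (median -0.13), with rises of 1.18 for the helicase Ddx28, 0.98 for the RNA methyltransferase Mrm3 and 1.46 for the pseudouridine synthase Rpusd4. Of 17 mitochondrial tRNA synthetases 5 rose and 6 fell (median -0.15), among them Mars2 (0.88) and Cars2 (-0.83). Of 18 genes of mitochondrial transcription and RNA processing 10 rose and 2 fell (median 0.41). The RNA degradation pair Pnpt1 and Supv3l1 changed by 2.75 and 1.26, and the tRNA-processing subunit Trmt10c by 1.04. The falls were Hsd17b10 (-1.26), a partner of Trmt10c, and Fastk (-0.62). With GC and length offsets the median of the assembly factors was 0.21, that of the tRNA synthetases 0.15 and that of the other-named mitoribosomal proteins 0.43, so these 3 medians turned positive, and with upper quartile factors that of the translation factors was -0.03.

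Among 9 regulators of nuclear genes for mitochondrial proteins 4 rose (44.4%, against 30.9% of all tested genes) and 3 fell (33.3%, against 28.4%). Their median was 0.51. Myc, a growth regulator that binds E-boxes, stood at 577, 746, 336 and 625 CPM in obese and 103, 91.4, 88.3 and 77.1 CPM in lean replicates. Every obese tumour exceeded every lean tumour, with a log2 change of 2.67 ± 0.25 (edgeR adjusted p = 0.000269). The remaining rise was Gabpa (0.73), an ETS factor. Nrf1, the factor that binds the NRF1 site, rose by 0.77 ± 0.12 (adjusted p = 0.00197) and the coactivator Pprc1 by 1.47 ± 0.25 (adjusted p = 0.00231). The 3 falls were the coactivators Ppargc1a (-3.52) and Ppargc1b (-2.01) and the nuclear receptor Esrra (-0.95), named because they are all the falls of the list and chosen after their values were seen.

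The proteins made by the mitochondrial ribosome join nuclear-encoded subunits in the oxidative phosphorylation complexes, and these nuclear-encoded subunits mostly fell. Of 82 tested, 3 rose (3.66%, against 30.9% of all tested genes) and 53 fell (64.6%, against 28.4%), with a median of -0.78. With offsets 7 rose and 44 fell (median -0.47), and over all genes tested that way 32.2% rose and 28.9% fell. The rises without offsets were Sdhd (0.58), Cox7a2l (0.61) and Atp5b (0.68), chosen after their values were seen. The list was taken by name pattern, which did not leave out subunit-like genes such as Cox7a2l. The complex I subunits Ndufb11, Ndufa11 and Ndufa1 fell by 1.77 ± 0.24, 1.13 ± 0.16 and 1.47 ± 0.22. Of 21 general mitochondrial proteins 12 rose (57.1%) and 1 fell (4.76%), with a median of 0.38. With upper quartile factors these counts became 6 and 4, as 3612 of all tested genes rose and 5145 fell. Citrate synthase (Cs) rose by 1.22 ± 0.14, the inner membrane scaffold Phb2 by 1.28 ± 0.13 and the import receptor Tomm70a by 1.49 ± 0.21. Of 70 cytosolic ribosomal proteins 31 rose (44.3%) and 3 fell (4.29%), with a median of 0.33. Rps2 was at 1.46, Rpl35a at 1.98 and Rpl22 at 1.08, and the falls included Rpl38 (-0.96) and Rpl39 (-0.50). Under upper quartile scaling their median was 0.12, and under GC and length offsets 0.70. The members' median of -0.18 lay between those of the oxidative phosphorylation subunits and the cytosolic ribosomal proteins. Differences between lists were not tested.

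**Figure D5:**
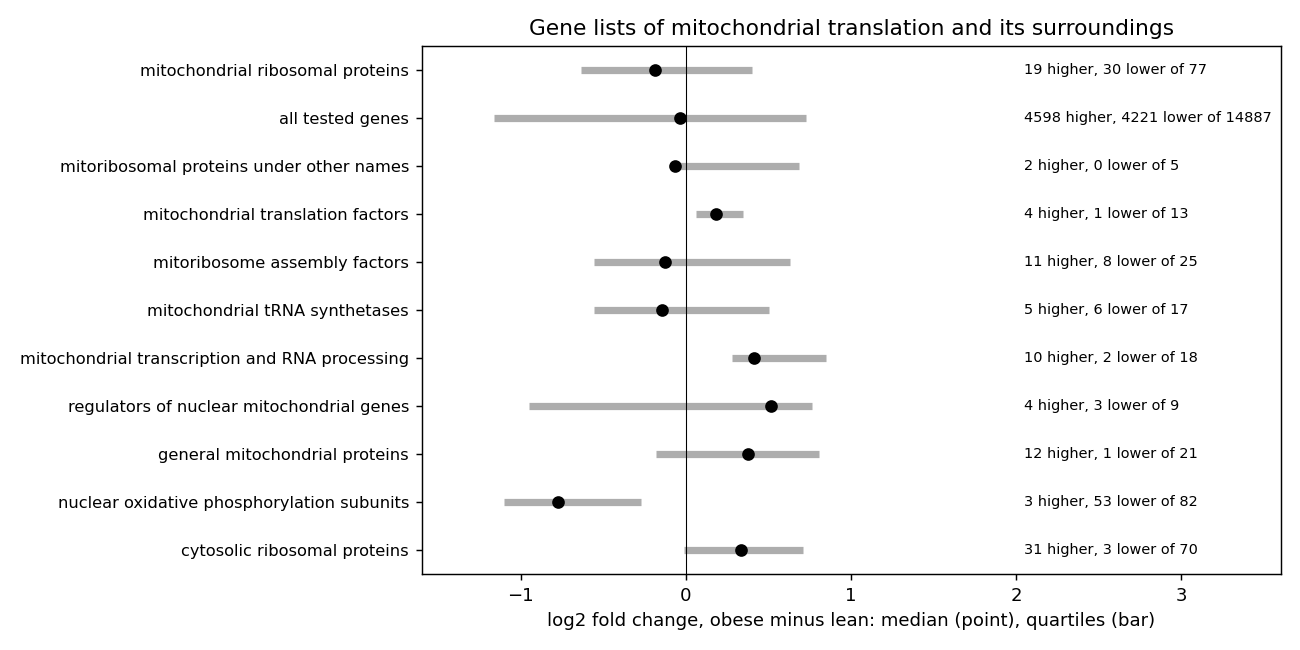
Median log2 change (points, obese minus lean) and its quartiles over genes (bars) for the mitochondrial ribosomal proteins, all tested genes and the related lists, with the numbers that rose and fell. Medians run from -0.78 for the nuclear-encoded oxidative phosphorylation subunits to 0.51 for the regulators, and that of the members lies at -0.18.

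The 37 mitochondrially encoded genes of the table, which hold the ribosomal RNAs and mRNAs that the mitochondrial ribosome uses, had a total of 0 counts. The RNA partners of these proteins are therefore not described here.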

How the data were processed

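RNA-seq of 8 tumours was analysed from the counts that the authors deposited, whole numbers of reads per Ensembl gene with no normalization. Per the labels' protocols, total RNA came from an RNeasy extraction and was prepared as strand-specific TruSeq libraries. The submitters' processing notes name, for the build mm10, the tools STAR 2.5.2b and HTSeq, and further cutadapt 1.12, bcl2fastq 2.18.0.12 and CASAVA 1.8. The annotation and the strand setting of the counting are not given in the sources used here, so reads of overlapping genes may be assigned otherwise than assumed.

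Symbols, exon lengths, GC content and coordinates (counted from 1, GRCm38) came from GENCODE M21, which named 49412 of 50143 gene IDs. Genes passing edgeR's filterByExpr (minimum count 10, minimum total 15) were scaled by TMM and tested, obese against lean, with edgeR 4.0.16's quasi-likelihood F test in R 4.3.3 (robust, two-sided, Benjamini-Hochberg over 14887 genes, threshold 0.05). The SE is the log2 change divided by the square root of F. Groups came from the labels, which give no batch or pairing, and replicate numbers follow accession order and only name tumours. Libraries of 25.7 to 66.7 M counts set the counting precision.

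Alternatives were other scaling factors, other filters, DESeq2 1.42.0, limma 3.58.1 (voom, with and without quality weights), GC and length offsets (loess, span 0.5), and leaving out each tumour. Members and lists were chosen with earlier results of these data known. The text names the 8 largest rises and the 8 largest falls, the 5 highest and 3 lowest members per kilobase, the untested member, the 4 with the highest adjusted p, the Mrps18 family and up to 3 genes of smallest p per list. Other genes named were chosen after their values were seen. The name pattern for cytosolic ribosomal proteins also took 10 tested genes that are no ribosomal proteins (the S6 kinases and Rps19bp1), which were left out after the values were seen. With them the list held 33 rises and 5 falls of 80. Some list genes are not reported here by name.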

Additional observations from a re-analysis of the deposited data

Results flagged for a closer look

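In groups of 4 tumours, a value is given here where its gap to the nearest other tumour, as a share of the group's range, exceeded Dixon's 95% critical value. Chance alone gives about 1 such value in 20 groups, and 60 groups were examined, of which 4 met it. Lean replicate 2 held 3 of the 4. Its Mrpl38 level was 99.7 CPM, against 178 to 189 CPM in the other lean tumours, and its Mrps7 level was 185 CPM, against 219.7 to 227 CPM. The summed level of all members in lean replicate 2 was 4119 CPM, against 4828 to 4939 CPM in the other lean tumours. The remaining value was Mrpl33 in lean replicate 4, at 59.1 CPM against 68.8 to 70.2 CPM. Without lean replicate 2, 17 members rose and 32 fell, and the calls for Mrpl38 and Mrps7 were kept. The cause of these values was not tested.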

How the results depend on the processing

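Counts of members moved with scaling, with the filter and the test, with the GC and length offsets and with single tumours. Scaled by upper quartiles or by library size alone, 10 and 10 members rose, against 19, and the members' median was -0.39 and -0.37. Those scalings also moved the median of all tested genes, to -0.25 and -0.22, and relative to it the members' median was -0.14 under both, against -0.15 with TMM. With GC and length offsets 18 members fell and the members' median was 0.028. In that fit 4 members that fell in the report had changes above 0 and did not pass: Mrpl14 (0.028), Mrpl54 (0.052), Mrps24 (0.039) and Mrps34 (0.060). Leaving out 1 tumour gave 14 to 32 falls, with the fewest (14) when lean replicate 4 was absent. There were 16 falls when obese replicate 4 was absent, 17 for lean replicate 3 and 18 for either obese replicate 2 or lean replicate 1. Rises ran from 15 to 22 and the members' median from -0.22 to -0.13 over the same fits. Fewer tumours enter each of these fits. The causes of the other shifts were not tested. The counts of rises and falls among all tested genes stayed within 1.5 times under all 17 alternatives. DESeq2's Wald test gave 19 rises and 35 falls, limma-voom 18 and 30, and limma-voom with quality weights 24 and 36. Without a filter 21 members rose and 24 fell, and with a filter of 1 CPM in 4 tumours 18 rose and 33 fell. Relative to all genes tested in those 2 fits, the members' median was -0.005 and -0.22.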
